A study of Mus musculus with 4 samples.

Results

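The 7 genes described here encode the contractile machinery that smooth muscle cells share with activated myofibroblasts: Acta2, Myl9, Myh11, Tpm1, Tpm2, Tagln and Cnn1. They were taken by symbol from the 19465 genes of the deposited matrices, and each matched 1 row. In a smooth muscle cell, actin filaments carrying tropomyosin slide along myosin when the myosin light chain is phosphorylated, and this shortens the cell and narrows the vessel. In the healthy liver the programme is a property of the muscle layer of hepatic arteries, portal veins and larger central veins. During fibrosis, hepatic stellate cells and portal fibroblasts can become myofibroblasts that take up part of it, and Acta2 protein (alpha smooth muscle actin) is the usual stain for such cells.

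Transcripts were measured with the Visium assay in formalin-fixed, paraffin-embedded liver sections; each barcoded spot covers a small area with several cells. There were 4 sections, 1 from each of 4 mice labelled as males of 5 months. The healthy section came from an HK2fl/fl mouse given olive oil. Fibrotic 1 and fibrotic 2 came from HK2fl/fl mice given carbon tetrachloride (CCl4), a liver toxin, at 1 μL/g. The Hk2-deleted section, labelled as fibrotic with intervention, came from a PDGFRBcreERT2/Hk2fl/fl mouse given CCl4, in which tamoxifen-activated Cre under the Pdgfrb promoter removes hexokinase 2. Pdgfrb is expressed by stellate cells and by the mural cells of vessels, so cells that express the contractile genes are among those the Cre can reach. CCl4 was given 2 times a week, for 6 weeks per the series' design text and for 4 or 6 weeks per the protocol. All mice, the healthy one included, carried the floxed Hk2 alleles and received tamoxifen at 75 mg/kg on 5 days; the littermate controls lacked the Cre, so no section tests the Cre alone.

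The sections held 2577 to 4134 spots and 40585039 to 67479047 UMIs (counted transcript molecules), with a median of 13665 to 15588 UMIs per spot. Hk2 itself was at 1.85 CPM (UMIs relative to all UMIs of the same spots) in the healthy section, 4.88 in fibrotic 1, 3.94 in fibrotic 2 and 3.50 in the Hk2-deleted section. One library went against its label: the Y-linked genes Eif2s3y and Ddx3y were at 0.578 and 0.415 CPM in fibrotic 1 but at 62.1 to 69.9 and 47.0 to 52.4 in the other 3 sections, although every mouse is labelled male. Pairs of sections shared 2041 to 3320 spot barcodes, which are positions printed on every slide of this kind. Sections were the replicates, spots were not, and only the fibrotic group had more than 1 section. A comparison between groups therefore rests on the spread between the fibrotic sections, and a bulk level cannot tell fewer cells of a type from less RNA per cell.

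A gene was called at an adjusted p under 0.05 in edgeR's quasi-likelihood test with Benjamini-Hochberg adjustment over all genes tested; differences are log2 fold changes ± standard error (SE) after TMM scaling, which centres the bulk of genes. Levels in CPM are not TMM-scaled and come with exact Poisson intervals of 95% that cover counting error only. With library sizes alone in place of TMM, the median difference of all genes, -0.01 to 0.01 with TMM, was 0.21 between zones, 0.33 between collagen-high and other spots, 0.13 at the surface, 0.34 between CCl4 and olive oil, 0.13 for the zone difference with CCl4, 0.18 for the collagen-high difference with CCl4, 0.30 for collagen-high spots away from the surface and 0.11 around collagen-high spots, so every difference below is relative to the typical gene. The share of called genes that were higher then went from 70.6% to 90.1% for CCl4 in whole sections, from 53.1% to 92.2% between zones, from 44.7% to 72.9% for the zone difference with CCl4, from 49.7% to 91.7% for collagen-high spots, from 10.0% to 75.2% for the collagen-high difference with CCl4 and from 48.8% to 92.2% at the surface. It went from 48.1% to 90.7% for collagen-high spots away from the surface and from 53.0% to 91.4% around collagen-high spots. With DESeq2's size factors and test it went to 61.5% at the surface, from 62.5% to 52.4% for Hk2 deletion in whole sections and from 91.4% to 75.0% for the collagen-high difference with Hk2 deletion.

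Acta2 (chr19:34240336-34255585, mm10) encodes the smooth muscle actin of the thin filament. Myl9 (chr2:156775408-156781657) encodes the regulatory light chain of smooth muscle myosin and Myh11 (chr16:14194527-14292188) its heavy chain, the most restricted marker of mature smooth muscle among the 7. Tpm1 (chr9:67022590-67049672) and Tpm2 (chr4:43513726-43523583) encode tropomyosins, which lie along actin; Tpm1 also gives short forms found in many non-muscle cells, and the matrices do not separate the forms. Tagln (chr9:45929628-45936058, transgelin) and Cnn1 (chr9:22099221-22109221, calponin) encode actin-binding proteins of smooth muscle. Striated muscle also uses tropomyosins, and its 15 markers in the matrices, among them Des, which smooth muscle shares, summed to 16.3 CPM in the healthy section, 34.8 in fibrotic 1, 24.2 in fibrotic 2 and 33.2 in the Hk2-deleted section. Of the 15, 7 were at 0 UMIs in the healthy section, 3 in fibrotic 1, 6 in fibrotic 2 and 2 in the Hk2-deleted section. The heavy chains Myh2 and Myh7 were at 0 in every section, while other heavy chains of the list were detected in the CCl4-treated sections. The part of striated muscle in the members' levels was not tested.

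Smooth muscle genes are classically driven by serum response factor with its partners of the myocardin family at CArG boxes, and by TEAD factors at the MCAT motif, CATTCC. The 250 bases before the start given in the RefSeq promoter table were searched on both strands in GRCm38.p6. The patterns were the MCAT motif and the CArG box with at most 1 of its 6 central bases other than A or T. Of the 7 members, 5 had a promoter in that table, and Tagln and Myh11 did not. The Acta2 and Tpm1 stretches below lie inside the gene spans given above, so these starts are not the outer ends of those spans. Acta2 had 2 CArG boxes, 84 and 34 bases before the start, and 1 MCAT match at 146 bases; Myl9 had 2 CArG boxes at 161 and 99 bases; Tpm1 had no CArG box and 1 MCAT match at 56 bases; Tpm2 and Cnn1 had neither. Over 32851 promoters, 8.59% held such a CArG box and 12.6% an MCAT match. The stretches that hold the matches are shown 5′ to 3′ because Acta2 and Myl9 carry paired CArG boxes and Tpm1 does not; capitals mark the matches, with the MCAT motif of Acta2 and Tpm1 read on the opposite strand, and the matches do not overlap.
Acta2, chr19:34255393-34255524, minus strand: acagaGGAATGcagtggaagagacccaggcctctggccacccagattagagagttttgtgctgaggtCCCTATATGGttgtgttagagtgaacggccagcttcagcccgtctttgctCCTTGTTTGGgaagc
Myl9, chr2:156775289-156775388, plus strand: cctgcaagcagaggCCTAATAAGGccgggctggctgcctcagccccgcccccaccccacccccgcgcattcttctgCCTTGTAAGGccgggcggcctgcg
Tpm1, chr9:67049217-67049316, minus strand: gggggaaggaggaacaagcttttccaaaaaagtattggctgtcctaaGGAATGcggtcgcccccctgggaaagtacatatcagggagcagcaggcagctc
A match describes the letters of the window only, and binding was not measured.

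The members differed in how their transcripts were spread over the tissue. Myh11 and Acta2 transcripts were concentrated: the richest 1% of spots held 45.7% of the Myh11 UMIs in the healthy section and 29.2% to 36.4% in the others. For Acta2 the richest 1% of spots held 35.0% of the UMIs in the healthy section, 31.4% in fibrotic 1, 30.5% in fibrotic 2 and 35.3% in the Hk2-deleted section. Tpm1 was the most even, with 4.89% to 6.81% of its UMIs in the richest 1% of spots. Tagln lay between them at 17.3% to 22.9%, Myl9 at 19.3% to 24.2% and Tpm2 at 10.1% to 19.9%. The richest single spot held 7 Acta2 UMIs in the healthy section, 38 in fibrotic 1, 10 in fibrotic 2 and 43 in the Hk2-deleted section. Cnn1 was detected in only 11 to 54 spots per section with 13 to 60 UMIs, so its values rest on few molecules. These shares also fall with a gene's total count and are a description.

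The authors' deposited table gives Moran's I per gene, a score that is high where neighbouring spots have like levels. In the authors' deposited table Acta2 had the highest I of the 7 in the Hk2-deleted section, 0.294, and 0.141 in fibrotic 1. Acta2 was thereby above 99.5% and 98.5% of the genes with at least 300 UMIs in the same section. Its I in the authors' deposited table was 0.0527 in the healthy section and 0.0484 in fibrotic 2. Tagln had an I of 0.240 in the Hk2-deleted section, 0.112 in fibrotic 1, 0.0667 in the healthy section and 0.0442 in fibrotic 2 in the authors' deposited table. Tpm1 had an I of -0.00107 in the healthy section and 0.0469 to 0.0781 in the CCl4-treated ones in the authors' deposited table. All 7 members had their highest I in the authors' deposited table in the Hk2-deleted section. The same held there for the collagens Col1a1 (0.391), Col1a2 (0.352) and Col3a1 (0.345) in the authors' deposited table. The share of all genes with their highest I in that section was not counted.

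Spots with at least 2 UMIs of Myh11 hold the myosin heavy chain that is scarce outside smooth muscle. There were 10 such spots in the healthy section, 46 in fibrotic 1, 14 in fibrotic 2 and 82 in the Hk2-deleted section. Of the 10 in the healthy section, 9 lay in the periportal zone, where portal tracts with their arteries and veins are found. In the CCl4-treated sections that zone held 14 of 46 in fibrotic 1, 7 of 14 in fibrotic 2 and 22 of 82 in the Hk2-deleted section; the difference in these shares was not tested. Such spots also held more RNA of all kinds, with a median of 16672 to 28318 UMIs against 13587 to 15479 in spots without Myh11, and CPM levels take this depth into account.

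Acta2 was at 69.5 CPM in these spots in the healthy section, 199.5 in fibrotic 1, 64.1 in fibrotic 2 and 201.7 in the Hk2-deleted section. Spots without Myh11 were at 3.97, 7.78, 4.50 and 9.67 CPM in the same order. That is 17.5 times (95% counting interval 10.3 to 28.0), 25.6 times (21.3 to 30.7), 14.3 times (8.89 to 21.9) and 20.9 times (18.3 to 23.8) the level of spots without Myh11. Tagln was 8.50 to 13.4 times higher in the 4 sections, Myl9 6.98 to 11.5 times and Tpm2 6.03 to 9.26 times. Tpm1 was the least tied to Myh11, at 1.95 to 2.74 times. The collagen gene Col3a1, for comparison, was 3.99 times higher in the healthy section and 1.67 to 2.49 times in the CCl4-treated ones. Col1a1 was at 7.28 times in the healthy section, 1.72 in fibrotic 1, 1.97 in fibrotic 2 and 3.28 in the Hk2-deleted section. Col1a2 was at 4.69 times in the healthy and 3.11 in the Hk2-deleted section. Col1a1 was thus above Tpm2 (6.03) in the healthy section. It was also above Tpm1 in every section but fibrotic 1, though by little in fibrotic 2. Most UMIs lay elsewhere all the same: spots with at least 2 Myh11 UMIs held 7.72% to 34.9% of the Acta2 UMIs of a section, 6.11% to 24.0% of Tagln and 1.00% to 7.39% of Tpm1.

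**Figure D1:**
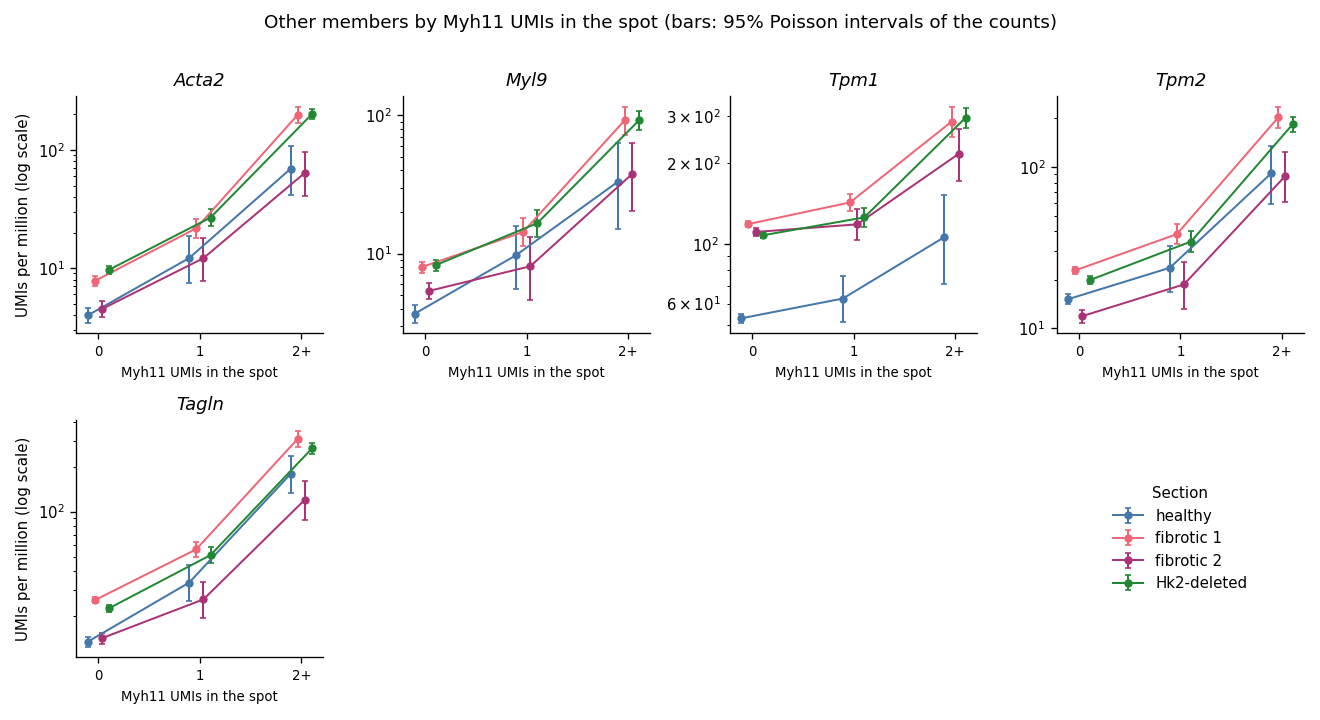
CPM (y axis, log scale) of 5 members in spots with 0, 1 or at least 2 Myh11 UMIs (x axis) in each of the 4 sections; points are levels of the summed spots and bars are 95% Poisson intervals. Acta2 climbs from 3.97 to 9.67 in spots without Myh11 to 64.1 to 201.7 in spots with at least 2, while Tpm1 climbs by 1.95 to 2.74 times.

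Across single spots the members correlated weakly with each other. Pearson's r of log2 levels, averaged over the 4 sections, had a median of 0.123 over the 21 pairs. The closest pair was Acta2 with Tagln, at 0.184 (0.124 to 0.282 over the sections), and Tpm1 with Cnn1 was the loosest, at 0.0384. Spots share depth and counts are sparse, so these values are a description. Among 8368 genes with at least 300 UMIs in every section, Mgp had the pattern most like Acta2 (mean r 0.212 over 4 sections), Tagln (0.193), Myh11 (0.179), Myl9 (0.156) and Cnn1 (0.112). That floor left out Acta2, Myl9, Myh11 and Cnn1, with 246, 216, 94 and 20 UMIs in the healthy section. Cnn1 had a higher mean r with Acta2 (0.182), Myh11 (0.137) and Myl9 (0.123) than with Mgp. For Acta2, Tagln, Myh11 and Myl9 no member was above Mgp. Mgp encodes matrix Gla protein, an inhibitor of calcification made by vascular smooth muscle and fibroblasts. Tpm1 instead had Col3a1 (0.158), Cd74 (0.155) and Col1a1 (0.146) nearest, and Tpm2 had Dpt (0.125). Tpm2 was closer still to Acta2 (0.145) and Myh11 (0.1275), which the floor left out.

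Collagen-high spots were the 10% of spots of a section with the largest share of Col1a1, Col1a2 and Col3a1 UMIs. They show fibrous tissue of the CCl4-treated sections, inside the liver and at its surface, and only the collagen-richest spots of the healthy one. There were 306 such spots in the healthy section, 413 in fibrotic 1, 258 in fibrotic 2 and 386 in the Hk2-deleted section. Every member was higher there than in the other spots of the CCl4-treated sections: 7 of 7 were called higher, against 21.9% of all 13167 genes tested. The median difference of the members was 1.02 on the log2 scale, against 0.01 over all genes.

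Acta2 in collagen-high spots was at 29.1 CPM in fibrotic 1, 10.2 in fibrotic 2 and 51.7 in the Hk2-deleted section. The other spots were at 8.96, 4.97 and 12.8 CPM. All 3 sections were higher in collagen-high spots, and the fitted difference was 1.42 ± 0.13 (edgeR adjusted p = 1.2e-06). Myh11 was at 13.9, 9.64 and 22.5 CPM in the same order against 5.17, 2.81 and 6.85 (1.30 ± 0.14, edgeR adjusted p = 5.2e-06). Myl9 was at 16.4, 8.79 and 24.9 against 8.63, 5.51 and 9.87 (0.74 ± 0.13, edgeR adjusted p = 0.00041). Within the myosin pair the heavy chain thus had the larger difference, though the difference between the 2 genes was not tested.

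Tpm1 was at 192, 188 and 212 CPM in collagen-high spots of fibrotic 1, fibrotic 2 and the Hk2-deleted section, against 114, 105 and 104 elsewhere. Its fitted difference was the smallest of the 7, 0.56 ± 0.06, with little spread between sections (edgeR adjusted p = 5.4e-06). Tpm2 was at 46.0, 24.7 and 62.0 against 23.8, 11.8 and 21.9 (0.88 ± 0.10, edgeR adjusted p = 7.1e-06). Tagln was at 61.6, 26.6 and 85.9 against 27.5, 14.7 and 26.0 (1.02 ± 0.11, edgeR adjusted p = 7.1e-06). Cnn1 had only 18, 2 and 21 UMIs in collagen-high spots, and its difference was 1.86 ± 0.33 (edgeR adjusted p = 0.00044).

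**Figure D2:**
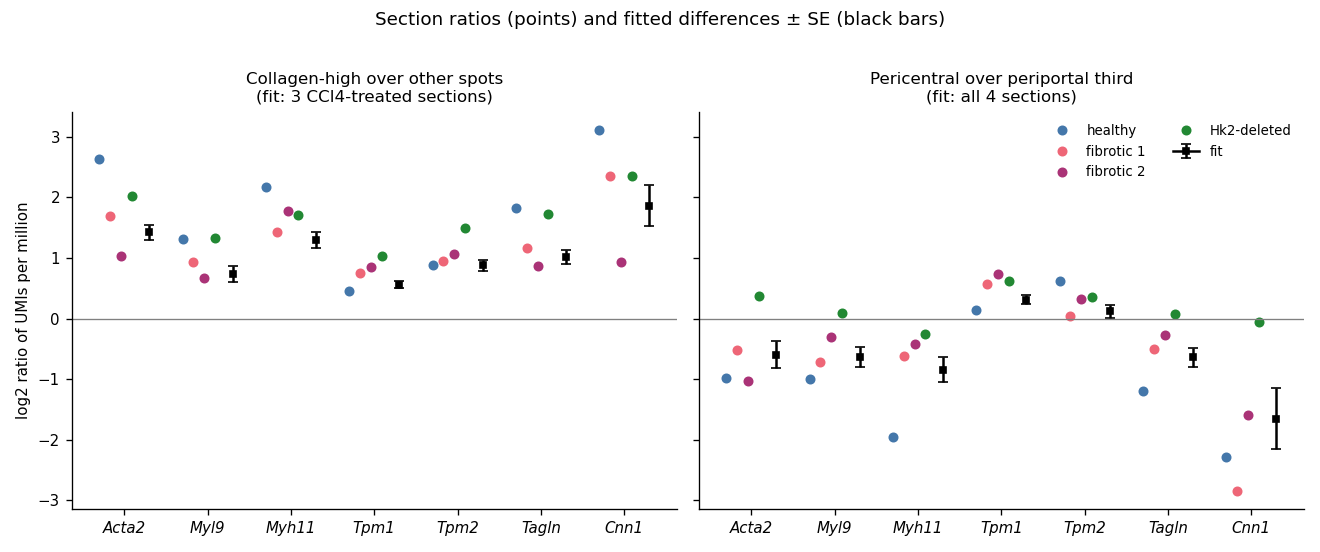
Log2 ratios of CPM (y axis) for the 7 members (x axis) in each section (coloured points), collagen-high over other spots on the left and pericentral over periportal zone on the right; black squares are the TMM-scaled fits with SE, and lie below most points because the points are unscaled. On the left every point is above 0. On the right Tpm1 and Tpm2 are above 0 in all 4 sections and Myh11 and Cnn1 are below 0 in all 4.

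The members held their level in fibrous tissue away from the liver surface, but several were lower without spots near Myh11 or Cnn1. With surface spots and the spots that touch one left out, 7 of 7 members were again called higher, against 17.2% of all genes, with Acta2 at 1.64 ± 0.16, Myh11 at 1.68 ± 0.17 and Tpm1 at 0.55 ± 0.06 (edgeR adjusted p = 5.1e-08, 7.6e-08 and 1.1e-07). With every spot that held a Myh11 or Cnn1 UMI and every spot touching one left out, an alternative chosen after seeing the data, Myl9 was no longer called (0.20, edgeR adjusted p = 0.45), while Tagln was at 0.35 and Tpm2 at 0.44, both still called. Acta2 kept a difference of 1.14 (edgeR adjusted p = 7.3e-05) and Tpm1 one of 0.47 (edgeR adjusted p = 2e-06). In those Myh11-free spots Acta2 was at 12.7, 5.83 and 18.1 CPM in collagen-high spots of fibrotic 1, fibrotic 2 and the Hk2-deleted section against 5.19, 3.68 and 4.69 in the others. Because Myh11 and Cnn1 are members themselves, lower values of genes that go with them follow in part from this choice of spots.

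Markers of several other cell types moved with the collagen-high spots. Of the 10 portal fibroblast markers 9 were called higher, of the 12 stellate cell markers 11, of the 10 mural cell markers 4 of the 9 tested and of the 8 mesothelial markers 7 of the 7 tested, while 5 of 5 hepatocyte markers were called lower. Over all 13167 genes tested, 2885 were called higher and 2919 lower. The summed level of the mesothelial list in collagen-high spots was 96.9 CPM in fibrotic 1, 17.6 in fibrotic 2 and 194 in the Hk2-deleted section; that of the portal fibroblast list was 867, 498 and 959. In the same spots the mural list summed to 197, 230 and 218 and the stellate list to 1620, 1583 and 1483. Their part in the members' levels was not tested.

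Other parts of the contractile apparatus were mostly higher there too. Of 32 further contractile genes 28 were tested, and 23 were called higher and 1, Cnn3, lower, with a median difference of 0.62. The largest among those with at least 10 CPM were Hspb1, a small heat shock protein (1.61 ± 0.26), Itga8, an integrin of smooth muscle and stellate cells (1.19 ± 0.07), and Mustn1 (1.05 ± 0.11), with edgeR adjusted p = 0.00018, 6.8e-08 and 5.9e-06. The list of regulators of contractile genes held 22 symbols, some of them older and newer names of 1 gene, and 20 were in the matrices. All 20 were tested, and 12 were called higher and 1, the kinase Rock1, lower. Tgfb3 (1.77 ± 0.15), the TGF-beta ligand, and the matricellular genes Ccn2 (1.12 ± 0.10) and Ccn1 (1.09 ± 0.09) were the largest, with edgeR adjusted p = 8e-07, 1.6e-06 and 5.8e-07. Tpm3, Tpm4, Actn4, Myl6 and Actc1 were not analysed here.

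Most members tested were also higher next to collagen-high spots. Spots that touch a collagen-high spot were compared with spots 4 or more steps away, a comparison added after seeing the data; 5 of the 6 members tested were called higher, against 5.67% of all 12284 genes. Acta2 was at 10.3, 6.08 and 26.2 CPM in the touching spots of fibrotic 1, fibrotic 2 and the Hk2-deleted section and at 6.56, 5.42 and 8.77 at 4 or more steps. Its difference was 1.02 ± 0.18 (edgeR adjusted p = 0.0022), followed by Myl9 at 0.56 ± 0.15, Tagln at 0.54 ± 0.11, Tpm2 at 0.45 ± 0.10 and Tpm1 at 0.19 ± 0.05 (edgeR adjusted p = 0.025, 0.0069, 0.009 and 0.025). Myh11, at 0.62 ± 0.21, was not called (edgeR adjusted p = 0.071). Without the Hk2-deleted section no member was called and Acta2 was at 0.38; DESeq2 called none either, with Acta2 at 0.70. In the same comparison 9 of 11 stellate cell, 5 of 5 mesothelial and 5 of 10 portal fibroblast markers were called higher and 3 of 5 hepatocyte markers lower. Over all 12284 genes, 697 were called higher and 619 lower. The part of these cells in the members' values was not tested.

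**Figure D3:**
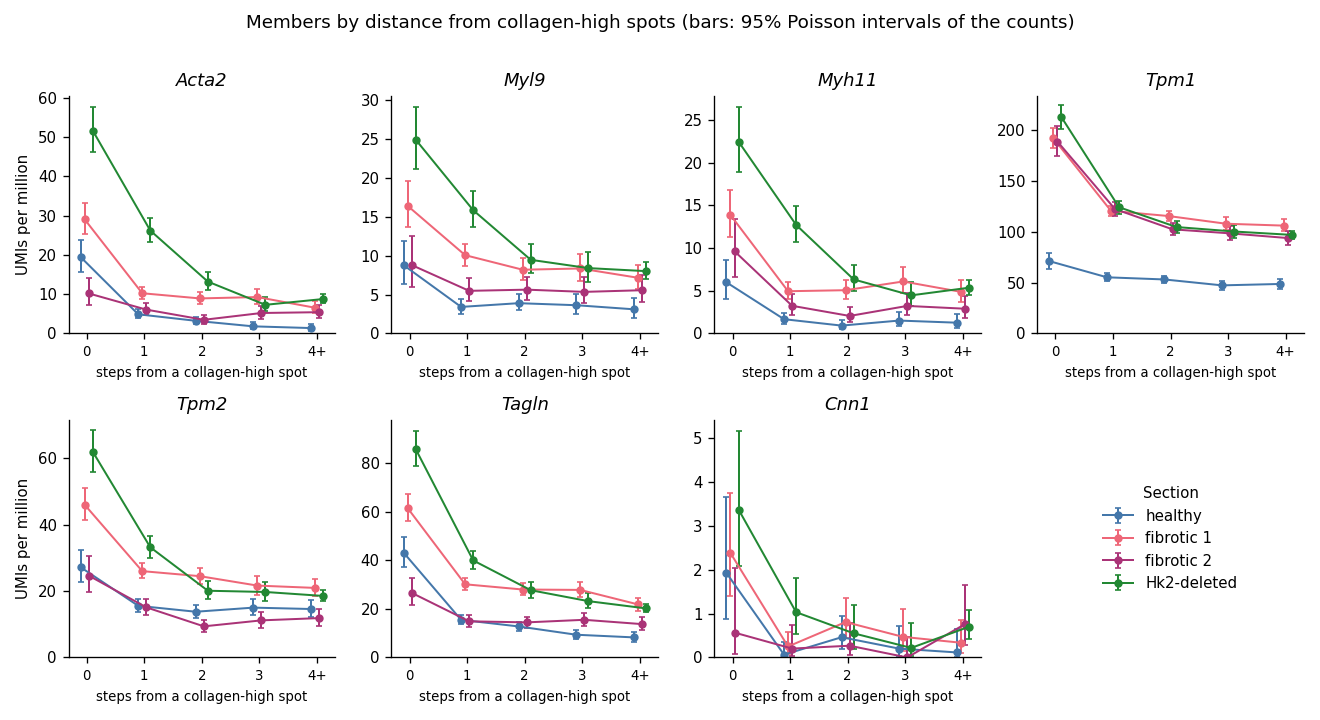
CPM (y axis, from 0) of each member in collagen-high spots (0) and in spots 1, 2, 3 and at least 4 grid steps away (x axis) in each of the 4 sections; bars are 95% Poisson intervals. In the Hk2-deleted section Acta2 goes from 51.7 to 26.2, 13.2, 7.30 and 8.77, while in fibrotic 2 it stays between 10.2 and 3.48.

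In the healthy section the spots richest in collagen also had high levels of the members. The class is relative to each section and is not alike between them. Col1a1 was at 42.2 CPM in the healthy collagen-high spots, against 298 in the other spots and 1150 in the collagen-high spots of fibrotic 1. Acta2 was at 19.5 CPM (91 UMIs) in the healthy collagen-high spots and at 3.14 elsewhere, Tagln at 43.2 and 12.2, and Myh11 at 5.99 and 1.34. The ratio of collagen-high over other spots was larger in the healthy section than in any CCl4-treated section for Acta2 (2.63 on the log2 scale against 1.04 to 2.01), Myh11 (2.16 against 1.42 to 1.78), Tagln (1.83 against 0.86 to 1.73) and Cnn1 (3.11 against 0.93 to 2.35). It was smaller in the healthy section than in any other for Tpm1 (0.46 against 0.75 to 1.03) and Tpm2 (0.88 against at least 0.95), and for Myl9 (1.31 against 0.67 to 1.33) it lay within their range. The difference between CCl4 and olive oil in this ratio was -1.07 ± 0.30 for Acta2 (edgeR adjusted p = 0.10), -0.68 ± 0.24 for Tagln (edgeR adjusted p = 0.20) and 0.23 ± 0.13 for Tpm1 (edgeR adjusted p = 0.43). None of the 7 members was called in edgeR, where 2 had an unadjusted p under 0.05 and 1.00% of all genes were called in either direction. Acta2 was called without fibrotic 1 (edgeR adjusted p = 0.0052) and without the Hk2-deleted section (edgeR adjusted p = 0.00435).

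Along the lobule, the axis from portal tract to central vein, Tpm1 was higher at the pericentral end, and Myh11 and Tagln were lower there. Each section was split into 3 zones with equal numbers of spots by a score of 9 pericentral and 12 periportal hepatocyte landmarks. Over the 4 sections 1 member, Tpm1, was called higher in the pericentral zone, against 5.62% of 12678 genes, and 2, Myh11 and Tagln, were called lower, against 4.96%. Myh11 was at 0.800 CPM in the pericentral and 3.10 in the periportal zone of the healthy section, 4.71 and 7.23 in fibrotic 1, 2.91 and 3.90 in fibrotic 2, and 6.40 and 7.67 in the Hk2-deleted section. It was lower pericentrally in all 4 sections, by -0.84 ± 0.21 (edgeR adjusted p = 0.045). Tagln was at 8.95 and 20.6, 25.7 and 36.2, 14.0 and 16.9, and 29.6 and 28.2 in the same order, lower in 3 of 4 sections (-0.64 ± 0.16, edgeR adjusted p = 0.049). The middle zone, which the test left out, was the highest of the 3 in the Hk2-deleted section for Myh11 (10.8 CPM), Tagln (37.2), Acta2 (18.3), Myl9 (13.2) and Cnn1 (1.49).

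Tpm1 ran the other way, at 56.1 and 50.9 CPM in the healthy section, 142 and 95.9 in fibrotic 1, 147 and 88.6 in fibrotic 2, and 142 and 92.3 in the Hk2-deleted section. It was higher pericentrally in 4 of 4 sections, by 0.31 ± 0.08 (edgeR adjusted p = 0.0496). Acta2 was lower pericentrally in 3 sections and higher in the Hk2-deleted one, at 17.8 against 13.8, as Tagln and Myl9 (10.7 against 10.1) were there, and was not called (-0.60 ± 0.23, edgeR adjusted p = 0.14). These orders within sections are in CPM without TMM. The log2 ratios of Tagln (0.07) and Myl9 (0.09) in the Hk2-deleted section and of Tpm2 in fibrotic 1 (0.04) were small. The median gene moved by more, to 0.21, when library sizes replaced TMM. Myl9 was at -0.64 ± 0.17 (edgeR adjusted p = 0.057), Cnn1 at -1.65 ± 0.50 (edgeR adjusted p = 0.079) and Tpm2 at 0.12 ± 0.11 (edgeR adjusted p = 0.54). The tropomyosins were thus the only members with a fitted value above 0, though Tpm2 was not called and its value was -0.03 without the healthy section.

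The calls along the lobule were marginal. No member was called without fibrotic 1 or without fibrotic 2, and without the Hk2-deleted section only Acta2 was called (edgeR adjusted p = 0.0499). Without the healthy section Myl9, Myh11, Tagln and Cnn1 were called lower and Tpm1 higher. That setting called far more of all 12678 genes, 2766 lower and 2593 higher, against 629 and 712 with all 4 sections. With surface spots and the spots that touch one left out, 4 members were called lower, Acta2 at -1.16, Myl9 at -0.71, Myh11 at -1.19 and Tagln at -0.83, and Tpm1, at 0.27, was not called (edgeR adjusted p = 0.059). Over all 12256 genes tested in that setting, 605 were called lower and 659 higher.

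**Figure D4:**
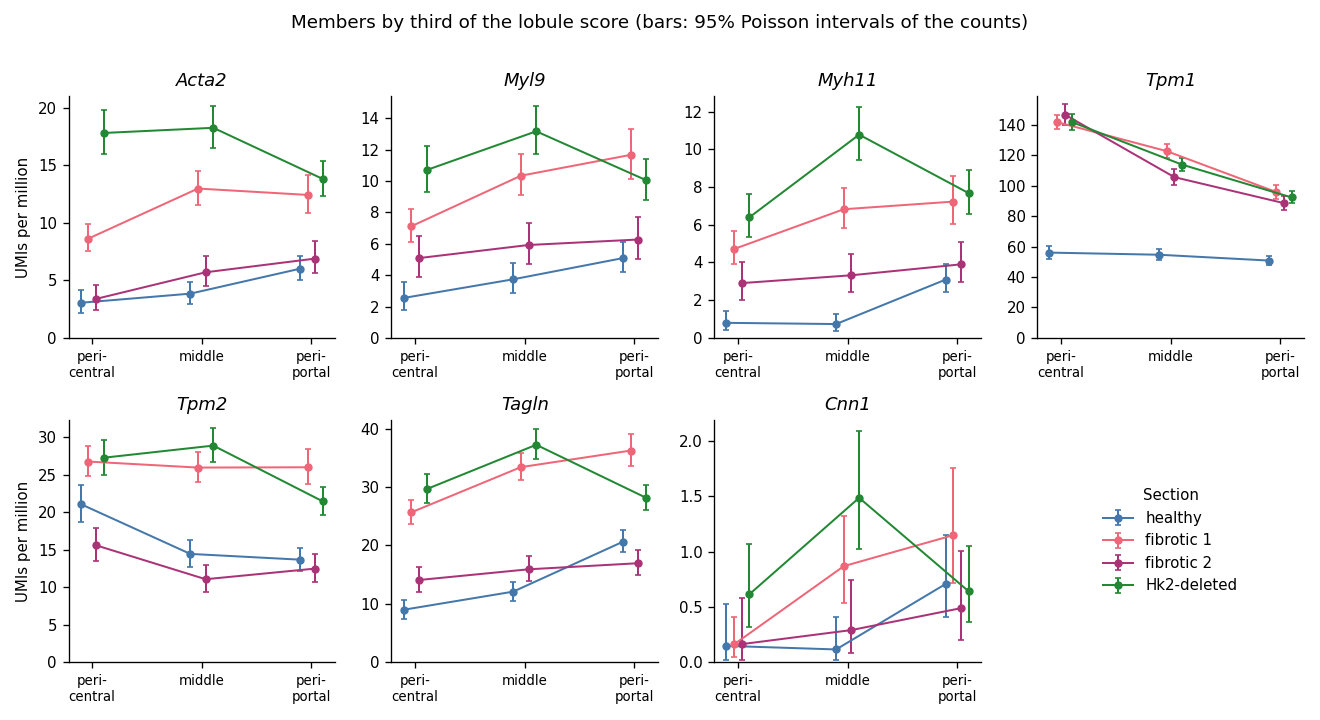
CPM (y axis, from 0) of each member in the pericentral, middle and periportal zone of the lobule score (x axis) in each of the 4 sections; bars are 95% Poisson intervals. Tpm1 falls from 142 to 147 pericentrally to 88.6 to 95.9 periportally in the CCl4-treated sections, while Myh11 and Tagln are highest at the portal end in the healthy section and in the middle in the Hk2-deleted one.

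In the healthy section the portal lean was strong: the periportal zone held 74.5% of the Myh11 UMIs, 80.0% of the Cnn1 UMIs (16 of 20), 58.1% of Tagln, 55.3% of Acta2 and 53.2% of Myl9, against 41.9% of all UMIs. The same zone held 31.8% of the Myh11 UMIs in fibrotic 1 against 27.1% of all UMIs, and 40.6% against 35.4% in fibrotic 2. In the Hk2-deleted section it held 33.1% of Myh11 and 32.0% of Tagln, less than its 36.0% of all UMIs, and the middle zone held 43.9% of Myh11. The zone difference differed between CCl4 and olive oil for 4 members. It was shifted toward the pericentral zone for Myh11 (1.39 ± 0.45, edgeR adjusted p = 0.039), Tagln (0.85 ± 0.23, edgeR adjusted p = 0.018) and Tpm1 (0.36 ± 0.10, edgeR adjusted p = 0.02), 3 of 7 against 9.09% of all genes. For Tpm2 it was shifted toward the periportal zone (-0.54 ± 0.16, edgeR adjusted p = 0.026), 1 of 7 against 11.2%. Tpm2 was at 21.1 and 13.7 CPM in the healthy pericentral and periportal zones, and at 26.8 and 26.0 in fibrotic 1, 15.6 and 12.5 in fibrotic 2 and 27.3 and 21.4 in the Hk2-deleted section.

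Only 1 healthy section stands behind that difference, and DESeq2 called none of the 5 members for which it gave an adjusted p. Without fibrotic 1, 5 members were called higher and 0 lower, against 1329 and 1457 of all 12678 genes. With surface spots and the spots that touch one left out, Tagln (0.75) and Tpm2 (-0.67) were called, and Myh11 (0.92) and Tpm1 (0.27) were not. Markers of other cells shifted toward the pericentral zone in the same test: 10 of 12 stellate cell markers were called higher (median 0.95), as were 4 of 10 portal fibroblast and 3 of 6 cholangiocyte markers. Their part in the members' shift was not tested.

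Of the 27 further contractile genes tested along the lobule, 5 were called higher pericentrally, against 5.62% of all genes, with Mustn1 at 1.06 ± 0.17, Itga8 at 0.95 ± 0.22 and the myosin light chain kinase Mylk at 0.56 ± 0.07 (edgeR adjusted p = 0.013, 0.038 and 0.0061). The leiomodin gene Lmod1, an actin nucleator of smooth muscle, was the 1 called lower. Of 12 stellate cell markers 6 were called higher pericentrally, Pdgfra (1.24 ± 0.22), Bambi (1.10 ± 0.16) and Reln (1.04 ± 0.18) most (edgeR adjusted p = 0.017, 0.0077 and 0.017). The 9 mural markers tested split, with the potassium channel subunits Abcc9 (0.87 ± 0.11) and Kcnj8 (0.70 ± 0.12) called higher (edgeR adjusted p = 0.0049 and 0.014) and Rgs4 and Notch3 called lower. Of 6 markers of cholangiocytes, the cells of bile ducts, 4 were called lower. The part of these cells in the members' zone values was not tested.

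In whole sections 2 members, the myosin heavy chain and 1 tropomyosin, were called higher in the fibrotic sections than in the healthy one. With 1 olive oil section, treatment and section cannot be told apart. Tpm1 was at 53.4 CPM in the healthy section (95% interval 51.5 to 55.4), 123 in fibrotic 1 and 112 in fibrotic 2. The difference was 0.80 ± 0.24 (edgeR adjusted p = 0.029). Myh11 was at 1.74, 6.15 and 3.40 CPM, from 94, 415 and 138 UMIs, and the difference was 1.11 ± 0.33 (edgeR adjusted p = 0.032). These were 2 of 7 members called higher, against 9.64% of 14125 genes; the median of the members was 0.52, against 0.00 over all genes.

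The other 5 members were not called, and the fibrotic sections disagreed about them. Acta2 was at 4.55 CPM in the healthy section, 11.2 in fibrotic 1 and 5.42 in fibrotic 2 (0.52 ± 0.28, edgeR adjusted p = 0.25). Tagln was at 14.8, 31.3 and 15.7 (0.31 ± 0.24, edgeR adjusted p = 0.44) and Tpm2 at 15.8, 26.3 and 12.9 (-0.05 ± 0.24, edgeR adjusted p = 0.92). For all 3 genes fibrotic 1 was well above fibrotic 2, which was near the healthy section, with Tpm2 below it. Myl9 was at 4.00, 9.50 and 5.79 (0.59 ± 0.26, edgeR adjusted p = 0.15) and Cnn1 at 0.370, 0.682 and 0.320 (0.11 ± 0.66, edgeR adjusted p = 0.93).

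Without fibrotic 1, the section that went against its sex label, Acta2 was at 0.02, Tagln at -0.15 and Myh11 at 0.73, while Tpm1 was at 0.83; these values have no test. The call of Myh11 was lost at a like size with DESeq2 (1.10, adjusted p = 0.15), without surface spots (1.09, edgeR adjusted p = 0.07) and without collagen-high spots (1.26, edgeR adjusted p = 0.051). It was also lost with equal weight per spot (0.22, limma adjusted p = 0.094).

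**Figure D5:**
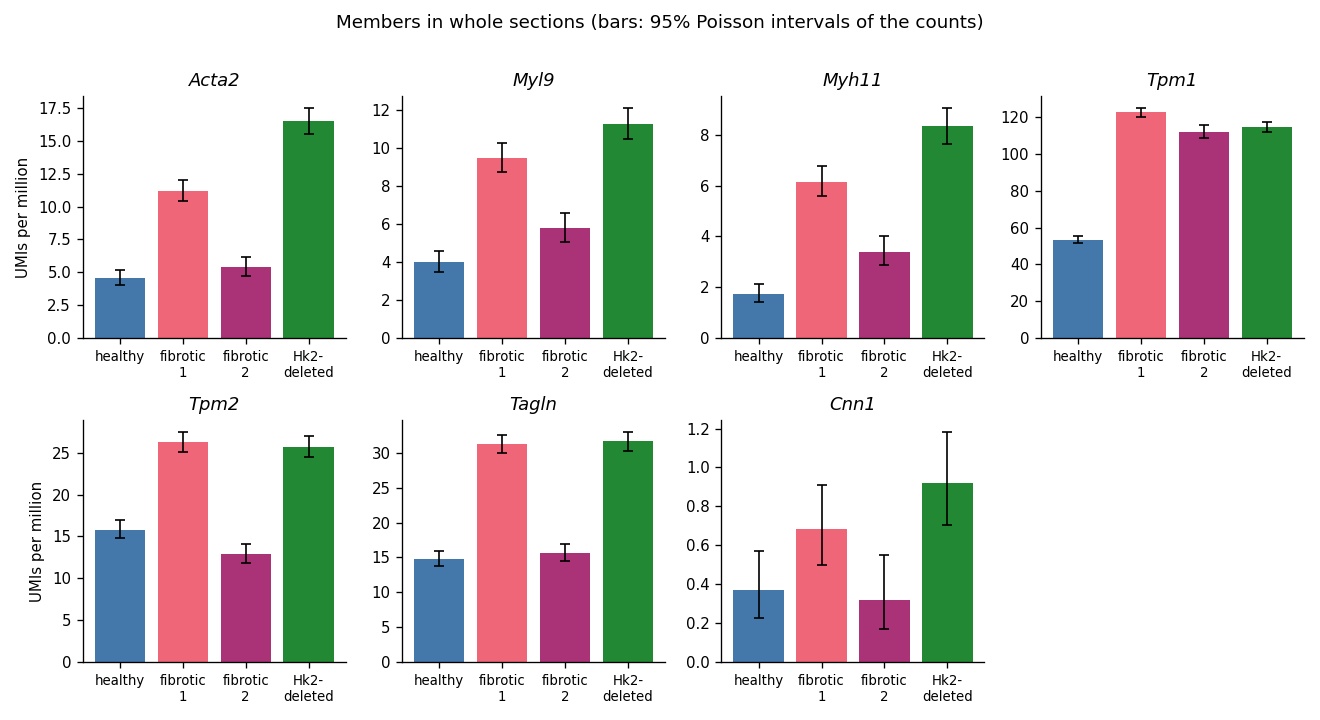
CPM (y axis, from 0) of each member in the whole of the 4 sections (x axis); bars are 95% Poisson intervals. Tpm1 is at 112 to 123 in the 3 CCl4-treated sections and at 53.4 in the healthy one, while Acta2, Tpm2 and Tagln in fibrotic 2 sit close to the healthy section.

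Within kinds of spots Tpm1 was called in 4 of 5 and Myh11 in 1 of 5. In the pericentral zone the members called higher with CCl4 were Myh11 (1.89 ± 0.48, edgeR adjusted p = 0.027) and Tpm1 (1.00 ± 0.22, edgeR adjusted p = 0.014), 2 of 7 against 13.4% of all genes. In the periportal zone no member was called higher (2.88% of all genes), with Tpm1 at 0.63 ± 0.22 (edgeR adjusted p = 0.12). In collagen-high spots Tpm1 alone was called (0.99 ± 0.24, edgeR adjusted p = 0.0094; 10.3% of all genes), and Acta2, at 19.5 CPM in the healthy section, 29.1 in fibrotic 1 and 10.2 in fibrotic 2, had a fitted value of -0.34 ± 0.34. In the other spots (0.77 ± 0.22, edgeR adjusted p = 0.047; 7.44% of all genes) and in spots away from the surface (0.77 ± 0.22, edgeR adjusted p = 0.041; 9.01% of all genes) Tpm1 was again the only member called.

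The fibrillar collagens had larger fold changes than any member. Col1a1 rose by 4.79 ± 0.44, Col1a2 by 3.91 ± 0.44 and Col3a1 by 3.46 ± 0.42 with CCl4 (edgeR adjusted p = 5.4e-07, 4.4e-06 and 1.4e-05). Of 28 further contractile genes tested, 3 were called higher and none lower, a share near the 9.64% of all genes: Itga8 (2.33 ± 0.24), Csrp1, a LIM protein of smooth muscle (0.96 ± 0.23), and Tagln2, a non-muscle relative of Tagln (0.81 ± 0.24), with edgeR adjusted p = 1.6e-06, 0.0077 and 0.027. The counts were also near that share for the 20 regulators tested, with 2 called higher, the ligands Tgfb2 and Tgfb3, and for the 10 mural markers, with 1, Rgs5, called higher (0.65 ± 0.18, edgeR adjusted p = 0.021), against 6 of 12 stellate cell markers and 7 of 10 portal fibroblast markers.

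No member passed the test for Hk2 deletion in whole sections. Acta2 was at 11.2 and 5.42 CPM in the fibrotic sections and at 16.5 in the Hk2-deleted section, above both (0.96 ± 0.26, edgeR adjusted p = 0.29). Myl9 was at 9.50 and 5.79 against 11.3 (0.52 ± 0.24), Myh11 at 6.15 and 3.40 against 8.35 (0.77 ± 0.30) and Cnn1 at 0.682 and 0.320 against 0.921 (0.81 ± 0.60), each also above both fibrotic sections. The share of all genes that lay above both fibrotic sections was not counted, so this order is a description. Tagln, at 31.3 and 15.7 against 31.7 (0.40 ± 0.23), was above fibrotic 1 by less than its counting interval. Tpm2, at 26.3 and 12.9 against 25.7 (0.36 ± 0.24), and Tpm1, at 123 and 112 against 114 (-0.09 ± 0.23), lay between the fibrotic sections in CPM. After TMM scaling neither did. Tpm2 was then at 23.4 and 13.2 against 23.6, above both, and Tpm1 at 109 and 114 against 105, below both. The edgeR adjusted p of the 6 members other than Acta2 was 0.9998. Of the 7 members 0 were called in edgeR, where 3 had an unadjusted p under 0.05, and 0 with DESeq2; edgeR called 0.227% of all genes in either direction. With no filter on low counts Acta2 was called (0.95, edgeR adjusted p = 0.0047).

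The Acta2 value was smaller away from the surface and without spots near Myh11 or Cnn1. It was 0.58 ± 0.32 in spots away from the surface and 0.23 with every spot that held or touched a Myh11 or Cnn1 UMI left out, where Myl9 was at 0.10, Tpm2 at 0.02 and Tagln at -0.06. That filter drops spots by 2 of the members, so smaller values follow in part from the choice. It also cut the sections unequally: the kept spots other than collagen-high held 52.7% of all UMIs in the Hk2-deleted section, 53.4% in fibrotic 1 and 66.3% in fibrotic 2. The Hk2-deleted section had 352 surface spots and 82 spots with at least 2 Myh11 UMIs, against 359 and 46 in fibrotic 1 and 9 and 14 in fibrotic 2. Its summed mesothelial level was 36.3 CPM against 30.0 and 6.31, and its summed platelet level 61.6 against 39.2 and 30.9; their part in the members' levels was not tested. Genotype and section cannot be told apart, since 1 section carried the deletion.

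No member was called for Hk2 deletion within any kind of spot. The collagen-high class lay near the surface to unequal degrees. It held 9.56% of all UMIs in the Hk2-deleted section, 2.86% being away from the surface. In fibrotic 1 these shares were 11.2% and 5.17%, and in fibrotic 2 they were 8.69% and 8.44%. The part of the surface in the values of this class was not tested. In collagen-high spots all 7 fitted values were above 0 and Acta2 was the largest of the well-counted members (1.25 ± 0.30, edgeR adjusted p = 0.098), followed by Myl9 (0.86 ± 0.28, edgeR adjusted p = 0.40), Tagln (0.86 ± 0.27, edgeR adjusted p = 0.34), Myh11 (0.83 ± 0.27, edgeR adjusted p = 0.40) and Tpm2 (0.71 ± 0.24, edgeR adjusted p = 0.45). Calls there covered 0.369% of all genes in either direction, and 5 of the 7 members had an unadjusted p under 0.05. They covered 0.0304% in the pericentral zone, 0.122% in the periportal zone, 0.0359% in spots other than collagen-high and 0.0290% in spots away from the surface, again with 0 members in edgeR, where 2, 0, 2 and 0 members had an unadjusted p under 0.05.

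The contrast between collagen-high and other spots was larger in the Hk2-deleted section for 1 member. Tagln was at 85.9 CPM in its collagen-high spots and 26.0 elsewhere, against 61.6 and 27.5 in fibrotic 1 and 26.6 and 14.7 in fibrotic 2. The difference of the differences was 0.61 ± 0.14 (edgeR adjusted p = 0.023), and 1 of 7 members called compares with 0.805% of all genes called higher. The other 6 were above 0 without a call, from 0.14 ± 0.27 for Myh11 to 0.47 ± 0.15 for Tpm2 (edgeR adjusted p = 0.94 and 0.17). DESeq2 did not call Tagln (0.66, adjusted p of 1), nor did edgeR with 5% of spots as collagen-high (0.55, adjusted p = 0.25) or without surface spots (0.63, adjusted p = 0.066), while with 20% of spots Acta2, Tpm2 and Tagln were called. In the same test 2 of 28 further contractile genes were called higher, Hspb1 (1.502 ± 0.281, edgeR adjusted p = 0.002) and the actin crosslinker Flna (0.46 ± 0.11, edgeR adjusted p = 0.024). Markers of other cells were called higher in it too, 2 of 4 platelet, 2 of 7 mesothelial (median 1.15), 2 of 12 stellate cell and 2 of 10 portal fibroblast markers, and their part in the Tagln value was not tested.

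Surface spots, which held at least 1 UMI of the mesothelial genes Msln or Upk3b, cover the capsule. There 1 of 6 members tested, Tpm1, was called higher (0.22 ± 0.07, edgeR adjusted p = 0.031), against 5.70% of 12938 genes. Tpm1 was at 58.9 CPM in the healthy surface spots, 145 in fibrotic 1, 116 in fibrotic 2 (25 UMIs in 9 spots) and 165 in the Hk2-deleted section. It was above its section's other spots in all 4. Acta2 was at 5.46, 9.72, 9.24 (2 UMIs) and 33.2 in the same order, below the other spots in fibrotic 1 and above them elsewhere, and was not called (0.42 ± 0.18, edgeR adjusted p = 0.13). Without the Hk2-deleted section its value was -0.18 and no member was called; with collagen-high spots left out no member was called either, with Tpm1 at 0.07. Of 28 further contractile genes 13 were called higher there, led by Hspb1 (1.58 ± 0.22) and Itga8 (0.55 ± 0.09), with edgeR adjusted p = 2.5e-06 and 3.4e-05, and 5 of 5 tested mesothelial markers were called higher.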

How the data were processed

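Visium sections of formalin-fixed mouse liver were analysed from the deposited matrices, which hold UMI counts per gene and spot, not normalized; per the file headers they were written by Space Ranger 2.0.0, with build mm10 per the submitters' processing notes. The authors' deposited table of spatial enrichment gives Moran's I, a score, per gene; its p-value and its signal column of median-normalised average counts, both deposited by the authors, were not used. The 7 members and all gene lists were chosen with earlier results of these data known.

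Counts were summed per section, or per section and kind of spot, and tested with edgeR 4.0.16 (quasi-likelihood, TMM, filterByExpr) in R 4.3.3, with Benjamini-Hochberg adjustment over all genes tested and a threshold of 0.05. Group comparisons in whole sections used all 4 sections and had 1 residual degree of freedom; comparisons between kinds of spots kept the section as a block. Lobule zones, 3 of equal size, came from the mean z-score of log2 (CPM + 1) of 9 pericentral minus 12 periportal landmarks, collagen-high spots were the top 10% by the share of 3 collagen genes, and surface spots held at least 1 UMI of Msln or Upk3b. Genes were named as members, as members of the lists past the threshold with at least 10 CPM (the largest 3 per list), or as the nearest by mean correlation over sections. Lmod1, Rgs4, Notch3, Tgfb2, Tgfb3 in whole sections, Cnn3 and Rock1 fell outside that rule and were named after their values were seen.

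Alternatives were DESeq2 1.42.0, library sizes alone, no filter on low counts, limma 3.58.1 with equal weight per spot, other cut-offs for zone, collagen and surface, spots left out, and each section left out. Scripts were tested on simulated data. Intervals are exact at 95% and cover counting error only.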

Additional observations from a re-analysis of the deposited data

Results flagged for a closer look

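The zone difference of 4 members differed between CCl4 and olive oil by edgeR's test of the difference, on the log2 scale. It was 1.39 for Myh11, 0.85 for Tagln and 0.36 for Tpm1, toward the pericentral zone, and -0.54 for Tpm2, toward the periportal zone. Only 1 section received olive oil.

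The difference between collagen-high and other spots was larger by 0.61 for Tagln in the Hk2-deleted section than in the fibrotic sections by the same kind of test, with 1 section carrying the deletion.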

How the results depend on the processing

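Over 20 comparisons, 711 member values were recomputed under alternatives; 509 kept their direction and side of the threshold, and 0 called members changed sign. For CCl4 in whole sections, 1 member in place of 2 was called higher with DESeq2, with limma at equal weight per spot, without surface spots, without collagen-high spots, without Myh11 or Cnn1 spots, and with fibrotic 2 and the Hk2-deleted section as the CCl4 group. For Hk2 deletion 1 was called with no filter on low counts. Between zones, 0 were called higher without surface spots and 2 with library sizes alone; 0 were called lower with only the outermost spots of the zone score or library sizes alone, and 4 with DESeq2, without surface spots or without collagen-high spots. Leaving out each section gave 0 to 1 higher and 0 to 4 lower, while 71 to 2766 of all 12678 genes were called lower. For the zone difference with CCl4, 1 was called higher without surface spots and 0 with DESeq2, 0 were called lower with DESeq2 or library sizes alone, and leaving out each section gave 2 to 5 higher and 0 to 1 lower. In collagen-high spots 4 of 5 tested were called without Myh11 or Cnn1 spots. For its difference with Hk2 deletion, 0 were called with 5% of spots, without surface spots or with DESeq2, and 3 with 20% of spots. At the surface 0 were called with touching spots added, without collagen-high spots or with DESeq2, 2 with no filter, 3 with library sizes alone, and 0 to 2 with each section left out. Next to collagen-high spots 0 were called with DESeq2, and 0 to 6 with each section left out. The median correlation over pairs was 0.192 when touching spots were summed. The cause was not tested for any of these.

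Uncalled members changed sign as follows. For CCl4, Tpm2 was at 0.32 with library sizes alone and 0.0369 with limma; for Hk2 deletion, Tpm1 was at 0.0179 with limma and Tagln at -0.0552 without Myh11 or Cnn1 spots. Between zones Tpm2 was at -0.0009 without surface spots and -0.0303 to 0.24 with each section left out. For the zone difference with CCl4, Acta2 was at -0.18 without surface spots and Cnn1 at -0.36 to 1.70 with each section left out. Myh11 was at -0.031 for the collagen-high difference with Hk2 deletion with 5% of spots, and Tpm2 at -0.0551 to 0.28 for that with CCl4 with each section left out. At the surface without collagen-high spots, Acta2 was at -0.20, Myh11 at -0.17 and Tagln at -0.0642. Myl9 there was at 0.11 with touching spots, 0.13 with library sizes alone, 0.0035 with no filter and 0.0277 with DESeq2, and Myh11 at -0.36 with 2 or more UMIs. With each section left out, the surface values were -0.18 to 0.82 for Acta2, -0.0675 to 0.10 for Myl9, -0.47 to 0.49 for Myh11 and -0.0775 to 0.48 for Tagln, and Myh11 next to collagen-high spots was at -0.0436 to 0.92. No paired analysis was possible because the healthy and Hk2-deleted groups have 1 section each, so the groups share fewer than 2 replicate numbers. Leaving out a fibrotic section in whole-section comparisons left no residual degrees of freedom and gave values without a test. DESeq2 gave no adjusted p for Myh11 and Cnn1 in the zone difference with CCl4. Depth limits Cnn1, with 13 to 60 UMIs per section.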
